A study of Mus musculus with 12 samples.

Results

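Hepatocytes take bile acids and other organic anions from the blood and secrete them into bile, and the 10 genes described here code for the main transporters of these steps. They were chosen by symbol for the membrane step they serve. Sinusoidal uptake is represented by Slc10a1, Slco1a1, Slco1a4 and Slco1b2, canalicular export by Abcb11, Abcb4 and Abcc2, and basolateral export by Abcc3, Abcc4 and Slc51b. All 10 were found among the 55357 genes of the count table, and all 10 were among the 17358 genes that passed the filter on low counts and were tested. The liver RNA came from 12 male C57BL/6J mice that were 7 weeks old when a 6-week diet began and 13 weeks old at the end. WT mice (PPARa fl/fl with AlbuminCre+/+) gave 4 libraries on chow (WT chow) and 3 on CDAHFD, a choline-deficient, amino acid-defined diet high in fat (WT CDAHFD). Hepatocyte-specific PPARα KO mice (PPARa fl/fl with AlbuminCre Tg/+) gave 2 libraries on chow (KO chow) and 3 on CDAHFD (KO CDAHFD). The floxed Ppara alleles were thus shared by all groups, WT included, and the albumin promoter drives Cre in hepatocytes, so that other liver cells of KO mice keep Ppara. The study asked how loss of PPARα, a fatty acid-sensing nuclear receptor, and the diet each change liver gene expression.

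Bile acids circulate between liver and intestine. At the sinusoidal membrane, which faces the blood, the sodium-coupled carrier NTCP and organic anion transporting polypeptides take them up, and at the canalicular membrane ATP-driven pumps move bile acids, phospholipid and conjugated anions into bile. Further pumps and the OSTα/OSTβ carrier at the basolateral membrane can return bile acids to the blood, a route that is used little in the healthy liver and more in cholestasis.

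The libraries held between 29906785 and 43551003 counts. The TMM factors, which scale library sizes for composition, were 0.729 to 0.827 in WT chow and between 1.03 and 1.26 in the other groups. Expression is given below as CPM, the usual depth-scaled count, computed on TMM library sizes. Ppara had 96.2 to 237.8 CPM in WT chow, 59.5 to 75.5 in WT CDAHFD, 14.4 and 38.7 in KO chow, and 20.7 to 51.9 in KO CDAHFD. Each KO library thus lay below each WT library. By the edgeR test described below, the log2 difference between KO and WT was -2.68 on chow (standard error 0.50, adjusted p = 0.0011). On CDAHFD it was -0.94 (standard error 0.42, adjusted p = 0.547) and did not pass the threshold. Ppara reads come from the whole gene and all liver cells. The summed level of 9 hepatocyte markers (albumin, transthyretin, apolipoproteins and others) ranged from 107824 to 128648 CPM in WT chow, 56384 to 67489 in WT CDAHFD, 88495 to 102922 in KO chow and 54700 to 70922 in KO CDAHFD. In bulk liver RNA, fewer hepatocytes and less RNA per hepatocyte cannot be told apart. A clock score, the mean log2 CPM of 7 genes that peak around the end of the light phase (Dbp, Tef, Nr1d1, Nr1d2, Per2, Per3, Ciart) minus that of 5 genes in antiphase (Arntl, Npas2, Clock, Cry1, Nfil3), was above 0 in 4 libraries. These were WT chow replicates 3 and 4, KO chow replicate 2 and KO CDAHFD replicate 3, with scores of 2.56, 2.58, 0.97 and 3.53, against -3.75 to -1.20 in the other libraries.

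The members lie at single loci, except for a cluster of organic anion transporter genes on chromosome 6. On GRCm38, Slc10a1 (ENSMUSG00000021135) spans chr12:80953183-80968705. Slco1b2 (ENSMUSG00000030236, chr6:141629518-141686646), Slco1a4 (ENSMUSG00000030237, chr6:141805440-141856199) and Slco1a1 (ENSMUSG00000041698, chr6:141907282-141946962) follow each other in the cluster. Abcb11 (ENSMUSG00000027048) spans chr2:69238282-69342616, Abcb4 (ENSMUSG00000042476) chr5:8893717-8959231 and Abcc2 (ENSMUSG00000025194) chr19:43782192-43840740. Abcc3 (ENSMUSG00000020865) spans chr11:94343295-94392997, Abcc4 (ENSMUSG00000032849) chr14:118482692-118706219 and Slc51b (ENSMUSG00000053862) chr9:65412714-65422955. All counts sum reads over the exons of a gene, so isoforms were not separated. Of the distinct 100-base stretches of their transcripts, 0.614% for Slco1a1 and 0.640% for Slco1a4 also occur in each other or in Slco1a5, 0.719% for Abcb11 and 0.480% for Abcb4 occur in another gene, and none for the other 6 members.

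The 250 bases upstream of a transcription start are shown for 6 members that turned in different directions below, namely 4 whose RNA was lower than in WT chow (Slc10a1, Slco1a1, Slco1b2, Abcb11) and 2 whose RNA was higher in KO chow (Slco1a4, Abcc4). The sequences are from RefSeq on GRCm38.p6, 5′ to 3′ on the strand of the gene. The windows are chr12:80968706-80968955 (minus strand) for Slc10a1, chr6:141946963-141947212 (minus) for Slco1a1, chr6:141629268-141629517 (plus) for Slco1b2, chr2:69342617-69342866 (minus) for Abcb11, chr6:141856221-141856470 (minus) for Slco1a4 and chr14:118706220-118706469 (minus) for Abcc4. Capitals mark matches, on either strand, to the nuclear receptor hexamer AGGTCA, the NRF2 core TGACNNNGC or the E-box CACGTG.
Slc10a1: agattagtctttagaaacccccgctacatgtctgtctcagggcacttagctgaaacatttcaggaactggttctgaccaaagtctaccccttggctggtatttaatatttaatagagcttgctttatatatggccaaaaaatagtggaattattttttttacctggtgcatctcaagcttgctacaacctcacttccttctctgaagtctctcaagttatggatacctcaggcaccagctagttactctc
Slco1a1: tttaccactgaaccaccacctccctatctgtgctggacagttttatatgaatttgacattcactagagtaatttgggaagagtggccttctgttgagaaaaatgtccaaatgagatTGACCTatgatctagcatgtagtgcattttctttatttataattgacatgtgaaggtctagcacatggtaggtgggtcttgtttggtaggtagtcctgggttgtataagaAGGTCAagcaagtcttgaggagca
Slco1b2: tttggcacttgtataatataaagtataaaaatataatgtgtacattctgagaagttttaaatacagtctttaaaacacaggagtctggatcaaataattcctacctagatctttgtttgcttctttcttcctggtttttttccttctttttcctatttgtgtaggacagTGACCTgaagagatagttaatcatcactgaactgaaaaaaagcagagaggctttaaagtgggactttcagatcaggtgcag
Abcb11: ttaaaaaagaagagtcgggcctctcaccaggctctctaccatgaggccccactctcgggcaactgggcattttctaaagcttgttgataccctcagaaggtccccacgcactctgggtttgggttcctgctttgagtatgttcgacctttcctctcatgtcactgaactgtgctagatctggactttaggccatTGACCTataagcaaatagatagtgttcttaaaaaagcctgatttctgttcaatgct
Slco1a4: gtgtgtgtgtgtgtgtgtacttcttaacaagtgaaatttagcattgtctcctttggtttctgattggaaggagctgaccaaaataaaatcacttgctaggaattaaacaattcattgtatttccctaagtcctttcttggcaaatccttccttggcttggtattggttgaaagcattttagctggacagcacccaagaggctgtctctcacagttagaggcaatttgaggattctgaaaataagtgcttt
Abcc4: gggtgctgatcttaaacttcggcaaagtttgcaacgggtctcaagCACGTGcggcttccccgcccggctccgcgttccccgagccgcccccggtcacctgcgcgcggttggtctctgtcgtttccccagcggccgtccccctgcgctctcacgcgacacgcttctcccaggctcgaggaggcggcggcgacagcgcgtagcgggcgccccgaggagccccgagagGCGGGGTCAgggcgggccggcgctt

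Of the 10 members, 9 matched the promoter table, with 11 windows, and Abcc3 did not. A member is counted below where any of its windows holds a match, while the percentages are per window, so the measures are unlike. The hexamer AGGTCA is a building block of the sites that nuclear receptors bind, many of which hold it in pairs. It occurred in a window of 6 members (Slc10a1, Slco1a1, Slco1b2, Abcb11, Abcc2 and Slc51b), and in 14.0% of all 32851 windows of the same length. In Slco1a1 it stood at positions -134 to -129 and -24 to -19 from the start site, in Slco1b2 at -81 to -76 and in Abcb11 at -56 to -51, while for Slc10a1 it was in a second window downstream of the one shown. The NRF2 core, whose TGAC can overlap a reversed AGGTCA, stood in windows of Abcc2 and Abcc4 (10.2% of windows), at -25 to -17 in the Abcc4 window shown. The E-box, which reads the same on both strands and is bound by clock factors among others, stood at -205 to -200 of Abcc4 (6.02% of windows). Exact pairs of the hexamer with 1 base between, facing each other or in the same direction, did not occur in any member window. They occurred in 0.00609% and 0.0335% of all windows, so their absence from 11 windows says little. Pairs with a mismatch in either hexamer were not searched for and may be present. Motif matches describe letters in a window and show no binding.

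Of the uptake transporters, Slc10a1, Slco1a1 and Slco1b2 fell in all 3 groups that lacked hepatocyte PPARα, ate CDAHFD or both, whereas Slco1a4 rose in KO chow and KO CDAHFD and did not pass the test in WT CDAHFD. Slc10a1, which codes for NTCP, the sodium-coupled carrier of conjugated bile acids, had 494, 818, 1014 and 1073 CPM in WT chow. It had 107, 98.0 and 139 CPM in WT CDAHFD, 118 and 179 CPM in KO chow, and 133, 149 and 146 CPM in KO CDAHFD. Every WT chow library thus lay above every library of the other groups, although WT chow replicate 1 had less than the other 3. Relative to WT chow, Slc10a1 was 5.71-fold lower in KO chow (log2 fold change -2.51, standard error (SE) 0.30, adjusted p = 3.59e-05). It was 7.41-fold lower in WT CDAHFD (-2.89, SE 0.26, adjusted p = 1.75e-06) and 5.96-fold lower in KO CDAHFD (-2.58, SE 0.26, adjusted p = 3.79e-06). All adjusted p here come from the quasi-likelihood test of edgeR after Benjamini-Hochberg correction over the 17358 genes, and a gene is said to rise or fall where adjusted p is under 0.05.

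Slco1a1 codes for an organic anion transporting polypeptide of the sinusoidal membrane whose RNA is known to be higher in male than in female mouse liver. It had 798, 968, 942 and 1382 CPM in WT chow, 119, 140 and 155 CPM in WT CDAHFD, 114 and 81.1 CPM in KO chow, and 133, 129 and 103 CPM in KO CDAHFD. WT chow and the other groups did not overlap, and the lowest library of all was KO chow replicate 2. The decrease relative to WT chow was 10.5-fold in KO chow (log2 fold change -3.39, SE 0.26, adjusted p = 9.49e-07), 7.40-fold in WT CDAHFD (-2.89, SE 0.21, adjusted p = 2.84e-07) and 8.41-fold in KO CDAHFD (-3.07, SE 0.21, adjusted p = 1.77e-07). In a list of 10 male-biased liver genes that does not hold Slco1a1, 9 fell in WT CDAHFD, 9 in KO chow and all 10 in KO mice on CDAHFD, beside 25.0%, 17.0% and 25.4% of all genes tested. The part of male-biased expression in the result was not tested.

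Slco1b2, the main hepatocyte uptake transporter of its family for unconjugated bile acids and many drugs, fell less. Its values were 1330, 1456, 2115 and 2100 CPM in WT chow, 904, 895 and 906 CPM in WT CDAHFD, 587 and 564 CPM in KO chow, and 739, 732 and 900 CPM in KO CDAHFD. The KO chow libraries were the lowest, and WT chow did not overlap any other group. Slco1b2 was 3.04-fold lower in KO chow (log2 fold change -1.60, SE 0.20, adjusted p = 4.96e-05), 1.94-fold lower in WT CDAHFD (-0.96, SE 0.17, adjusted p = 4.36e-04) and 2.21-fold lower in KO CDAHFD (-1.15, SE 0.17, adjusted p = 1.02e-04). With library size as the only scaling these values were smaller in size. In the same order they were -1.19 (adjusted p = 2.13e-04), -0.39 (adjusted p = 0.0463) and -0.52 (adjusted p = 0.0110). Between KO chow and WT CDAHFD the log2 difference of -0.65 (SE 0.20) had an adjusted p of 0.0746, and it passed the threshold with the clock score as a covariate (-0.68, adjusted p = 0.0072) and by DESeq2 (-0.68, adjusted p = 0.0143).

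Slco1a4, the neighbour of Slco1a1, is known to be higher in female than in male mouse liver and is induced by ligands of the xenobiotic receptors PXR and CAR. It had 4.39, 27.5, 27.0 and 27.0 CPM in WT chow, 39.7, 42.2 and 51.0 CPM in WT CDAHFD, 48.4 and 83.3 CPM in KO chow, and 48.6, 51.4 and 105 CPM in KO CDAHFD. All WT chow libraries lay below all others, WT chow replicate 1 lay apart from the other 3, and the 2 highest libraries, KO CDAHFD replicate 3 and KO chow replicate 2, both had a clock score above 0. Slco1a4 rose 3.06-fold in KO chow (log2 fold change 1.62, SE 0.51, adjusted p = 0.0237) and 3.18-fold in KO CDAHFD (1.67, SE 0.47, adjusted p = 0.0092), while the WT CDAHFD value of 1.04 (SE 0.46, adjusted p = 0.0783) was not past the threshold. Without KO chow replicate 2 the KO chow value was 1.17 (adjusted p = 0.187), and without KO CDAHFD replicate 3 the KO CDAHFD value was 1.22 (adjusted p = 0.0575). With the clock score as a covariate the WT CDAHFD value was 1.33 (adjusted p = 0.0095). Of 12 female-biased liver genes, of which 8 were tested, 4 rose in KO chow, 4 rose and 2 fell in WT CDAHFD, and 4 rose in KO CDAHFD, where 22.0%, 26.1% and 26.9% of all genes tested rose.

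**Figure D1:**
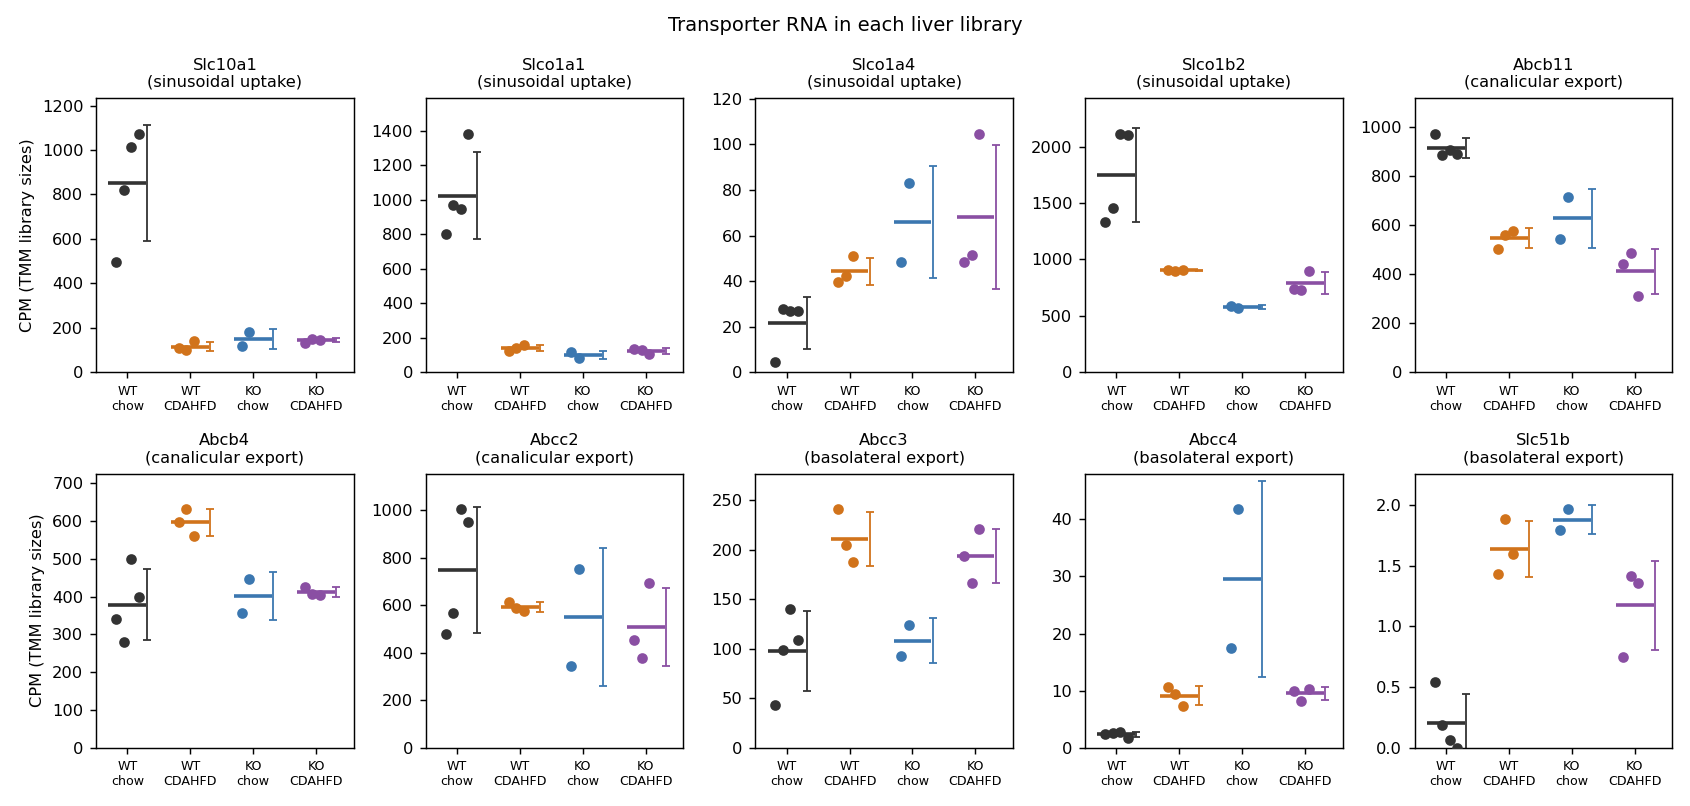
Expression of the 10 transporters in each library, as CPM on TMM library sizes (y axis, from 0, a scale of its own per gene), by group (x axis). Points are libraries, horizontal lines group means and bars 1 SD on either side. WT chow lies above the other groups for Slc10a1, Slco1a1, Slco1b2 and Abcb11, and below them for Slco1a4, Abcc4 and Slc51b.

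Among the canalicular exporters, Abcb11 fell in all 3 comparisons with WT chow, Abcb4 rose in WT CDAHFD, and Abcc2 did not pass the test in any of them. Abcb11 codes for BSEP, the pump that moves bile salts into bile and drives bile flow. It had 971, 883, 903 and 889 CPM in WT chow, 500, 559 and 576 CPM in WT CDAHFD, 542 and 711 CPM in KO chow, and 439, 486 and 309 CPM in KO CDAHFD. The WT chow libraries lay close together and above all others, and the lowest was KO CDAHFD replicate 3. Abcb11 was 1.45-fold lower in KO chow (log2 fold change -0.54, SE 0.17, adjusted p = 0.0261), 1.67-fold lower in WT CDAHFD (-0.74, SE 0.15, adjusted p = 0.0014) and 2.22-fold lower in KO CDAHFD (-1.15, SE 0.15, adjusted p = 4.81e-05). Without KO chow replicate 1 the KO chow value was -0.35 (adjusted p = 0.238). With library size as the only scaling, under which the median of all genes lay 0.40 (KO chow), 0.51 (WT CDAHFD) and 0.57 (KO CDAHFD) above WT chow on the log2 scale, the Abcb11 values in this order were -0.14 (adjusted p = 0.493), -0.18 (adjusted p = 0.274) and -0.55 (adjusted p = 0.0045).

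Abcb4 codes for the flippase that brings phosphatidylcholine into bile, where it shields the duct epithelium from bile salts. Its values were 340, 279, 499 and 399 CPM in WT chow, 598, 631 and 561 CPM in WT CDAHFD, 357 and 448 CPM in KO chow, and 427, 408 and 404 CPM in KO CDAHFD. The WT CDAHFD libraries lay above all others, and both KO groups lay within the range of WT chow. Abcb4 rose 1.57-fold in WT CDAHFD (log2 fold change 0.65, SE 0.16, adjusted p = 0.0052), with a KO chow value of 0.085 (SE 0.19, adjusted p = 0.747) and a KO CDAHFD value of 0.12 (SE 0.17, adjusted p = 0.561). With library size as the only scaling, Abcb4 was past the threshold in these as well, at 0.49 (adjusted p = 0.0389) and 0.74 (adjusted p = 0.0015). Without the 4 libraries with a clock score above 0 the KO CDAHFD value was 0.43 (adjusted p = 0.0235).

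Abcc2, which exports conjugated bilirubin, glutathione conjugates and divalent bile salts, had 479, 566, 1004 and 949 CPM in WT chow and 613, 590 and 575 CPM in WT CDAHFD. It had 345 and 754 CPM in KO chow and 455, 378 and 695 CPM in KO CDAHFD. All groups overlapped with WT chow, and within WT chow, KO chow and KO CDAHFD the libraries with a clock score above 0 were the highest. Relative to WT chow, its log2 fold change was -0.45 for KO chow (SE 0.35, adjusted p = 0.344), -0.34 for WT CDAHFD (SE 0.31, adjusted p = 0.383) and -0.56 for KO CDAHFD (SE 0.31, adjusted p = 0.149). With the clock score as a covariate the KO CDAHFD value was -0.62 (adjusted p = 7.50e-04). Without the 4 libraries with a clock score above 0, which left 1 KO chow library, the KO CDAHFD value was smaller in size, at -0.33. In the same fit the value was -0.60 in KO chow and 0.18 in WT CDAHFD.

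**Figure D2:**
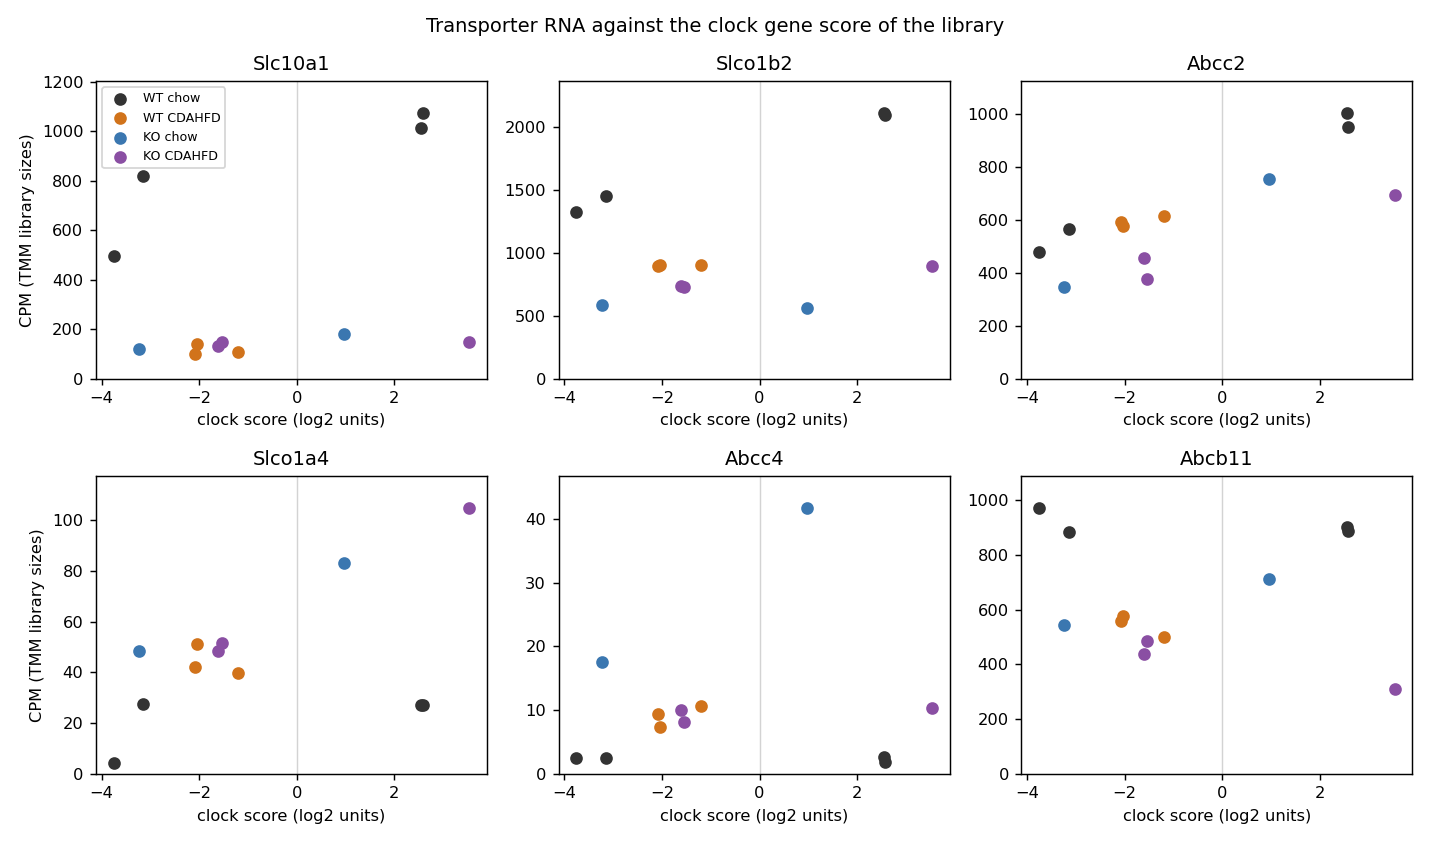
CPM of 6 transporters (y axes, from 0) against the clock score of each library (x axis, log2 units), coloured by group. Abcc2 had 345 CPM in the KO chow library with a score of -3.24 and 754 CPM in the one with a score of 0.97. In WT chow, Slc10a1 had 494 and 818 CPM at scores below 0 and 1014 and 1073 CPM above 0. Its KO chow values were 118 CPM below 0 and 179 CPM above 0. In KO CDAHFD it had 133 and 149 CPM below 0 and 146 CPM above 0.

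The basolateral exporters were higher than in WT chow, apart from Abcc3 in KO chow. Abcc3 exports glucuronides and bile salts to the blood and is made in hepatocytes and cholangiocytes. It had 43.1, 99.2, 140 and 109 CPM in WT chow, 241, 205 and 187 CPM in WT CDAHFD, 92.3 and 124 CPM in KO chow, and 194, 166 and 221 CPM in KO CDAHFD. Both CDAHFD groups lay above both chow groups without overlap, and KO chow lay within the range of WT chow. Abcc3 rose 2.16-fold in WT CDAHFD (log2 fold change 1.11, SE 0.28, adjusted p = 0.0057) and 1.98-fold in KO CDAHFD (0.99, SE 0.28, adjusted p = 0.0108), with a value of 0.15 (SE 0.32, adjusted p = 0.745) in KO chow.

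Abcc4 codes for a pump that exports bile salts together with glutathione, cyclic nucleotides and sulfated steroids, and it is a known target of NRF2 and CAR. It had 2.41, 2.52, 2.701 and 1.79 CPM in WT chow, 10.7, 9.34 and 7.30 CPM in WT CDAHFD, 17.5 and 41.7 CPM in KO chow, and 9.96, 8.21 and 10.4 CPM in KO CDAHFD. The KO chow libraries were above all others, although they differed from each other by more than any other group did, and the CDAHFD groups overlapped. Abcc4 rose 12.5-fold in KO chow (log2 fold change 3.64, SE 0.29, adjusted p = 1.26e-06), 3.85-fold in WT CDAHFD (1.94, SE 0.27, adjusted p = 5.75e-05) and 4.02-fold in KO CDAHFD (2.01, SE 0.27, adjusted p = 4.16e-05). Without KO chow replicate 2, the library with 41.7 CPM and a clock score of 0.97, the KO chow value was 2.88 (adjusted p = 4.49e-06).

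Slc51b codes for OSTβ, which forms the bile acid carrier of the basolateral membrane together with OSTα from Slc51a. It was close to the limit of detection in WT chow, with 14, 6, 2 and 0 counts or 0.54, 0.19, 0.07 and 0 CPM, where a count of 0 in replicate 4 allows up to 3 counts or 0.138 CPM from counting error alone. It had 1.43, 1.88 and 1.60 CPM in WT CDAHFD, 1.79 and 1.96 CPM in KO chow, and 0.75, 1.42 and 1.36 CPM in KO CDAHFD, from 31 to 97 counts. All WT chow libraries lay below all others, and the lowest library of the other groups was KO CDAHFD replicate 1. Slc51b rose in KO chow (log2 fold change 3.20, SE 0.61, adjusted p = 0.0013), WT CDAHFD (3.004, SE 0.57, adjusted p = 8.15e-04) and KO CDAHFD (2.52, SE 0.59, adjusted p = 0.0029), and without WT chow replicate 1 the values were 4.29, 4.10 and 3.63. Slc51a had 4 to 14 counts per library and did not pass the test (-1.18, SE 0.48, adjusted p = 0.0664 in KO chow). Of the 709 exonic bases of Slc51b, 91 are shared with Rasl12 on the opposite strand, and the libraries do not keep the strand. Summed over the libraries of a group, Rasl12 had 48 counts in WT chow against 22 for Slc51b, 41 against 240 in WT CDAHFD, 48 against 147 in KO chow, and 60 against 141 in KO CDAHFD.

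Cholangiocytes also express Abcc3, Slc51a and Slc51b, and their markers differed between the groups. The summed level of 11 cholangiocyte markers (Krt19, Krt7, Epcam, Sox9, Spp1 and others) ranged from 71.3 to 107 CPM in WT chow, 396 to 620 in WT CDAHFD, 192 to 314 in KO chow and 619 to 936 in KO CDAHFD. Of these markers, 9 rose and 1 fell in KO chow, and 10 rose in each CDAHFD group. In WT chow 2 of the 11 had no count in any library. Both the marker sum and Abcc3 were higher in every CDAHFD library than in every chow library, while the chow groups overlapped for Abcc3 and not for the marker sum. Of 8 macrophage markers, 7 rose in each comparison with WT chow. The part of these cells in the transporter values was not tested.

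**Figure D3:**
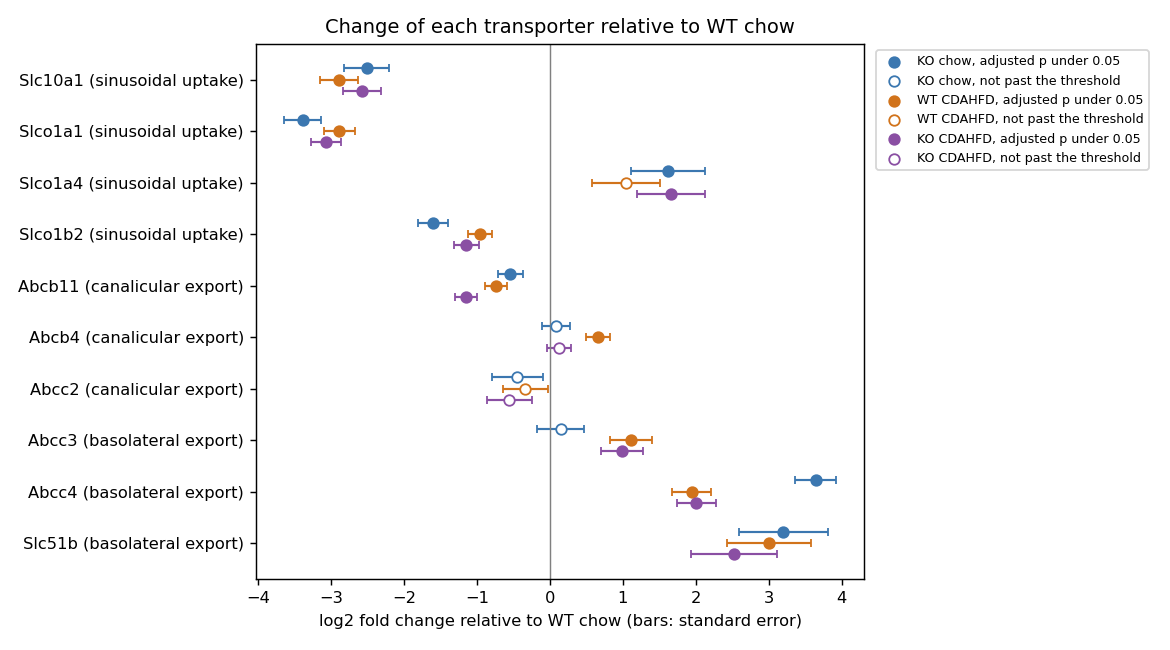
Log2 fold change of each transporter relative to WT chow (x axis) with its standard error (bars), for KO chow, WT CDAHFD and KO CDAHFD. Filled points have an adjusted p under 0.05. Slc10a1, Slco1a1, Slco1b2 and Abcb11 lie left of 0 in each comparison, and Abcc4 and Slc51b lie right of 0.

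Relative to WT chow, 3 members rose in KO chow (Slco1a4, Abcc4, Slc51b) and 4 fell (Slc10a1, Slco1a1, Slco1b2, Abcb11), beside 22.0% of all tested genes that rose and 17.0% that fell. In WT CDAHFD 4 rose (Abcb4, Abcc3, Abcc4, Slc51b) and Slc10a1, Slco1a1, Slco1b2 and Abcb11 fell, beside 26.1% and 25.0% of all genes. In KO CDAHFD 4 rose (Slco1a4, Abcc3, Abcc4, Slc51b) and Slc10a1, Slco1a1, Slco1b2 and Abcb11 fell, beside 26.9% and 25.4%. The median log2 fold change of the 10 members was -0.18, 0.16 and -0.22 in the same order, against 0.0022, -0.048 and -0.040 over all genes. The list as a whole thus did not move one way, since most uptake members fell and most basolateral members rose. The medians were -2.06, -1.92 and -1.86 for the 4 uptake members, -0.45, -0.34 and -0.56 for the 3 canalicular members, and 3.20, 1.94 and 2.01 for the 3 basolateral members. The 9 hepatocyte markers, of which 7, 9 and 8 fell, had medians of -0.67, -1.05 and -0.97 in this order. The 3 comparisons share the WT chow libraries, so their values are not independent of each other.

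Scaled by exon length, the order of the transporters was not the same in all groups. In WT chow Slc10a1 led with 386 ± 119 CPM per kb of exon (SD, n = 4), followed by Slco1b2 with 355 ± 84.3, which did not differ beyond these spreads, then by Slco1a1 with 194 ± 47.6 and Abcb11 with 177 ± 7.87, which did not differ beyond theirs either. In both CDAHFD groups Slco1b2 led, with 183 ± 1.14 in WT (SD, n = 3) and 160.3 ± 19.2 in KO (SD, n = 3), followed by Abcb11 with 106 ± 7.84 and 79.9 ± 17.8. In KO CDAHFD, Abcb11 did not differ beyond these spreads from Slc10a1 with 64.8 ± 3.98 and Abcc2 with 59.7 ± 19.4. In KO chow Abcb11 with 122 ± 23.2 and Slco1b2 with 117 ± 3.33 (SD, n = 2) came first and did not differ beyond their spread. Slc51b and Abcc4 were the lowest members in each group, at 0.28 and 0.37 CPM per kb in WT chow. Slc10a1 made up 40.6% of the length-scaled uptake RNA in WT chow and 19.3%, 31.5% and 25.1% in WT CDAHFD, KO chow and KO CDAHFD. Slco1b2 made up 38.1% in WT chow and 68.3%, 55.0% and 61.8% in these groups.

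The summed length-scaled RNA of the 4 uptake genes was 646 to 1180 CPM per kb in WT chow, 259 to 284 in WT CDAHFD, 202 and 224 in KO chow, and 243 to 285 in KO CDAHFD. The 3 canalicular genes differed less, with a mean sum of 305 ± 37.2 in WT chow (SD, n = 4), 239 ± 6.22 in WT CDAHFD (SD, n = 3), 229 ± 64.0 in KO chow (SD, n = 2) and 184 ± 1.28 in KO CDAHFD (SD, n = 3). The 3 basolateral genes summed to 17.8 ± 6.79, 40.8 ± 4.89, 26.3 ± 6.81 and 37.2 ± 4.97 in the same order, and Abcc3 made up at least 70.1% of that sum in every library. The ratio of uptake to basolateral RNA was 42.8 to 74.3 in WT chow and 5.67 to 9.41 in all other libraries. Ratios within a library do not depend on its scaling. Abcc4 held 16.9% ± 5.84 of the basolateral sum in KO chow (SD, n = 2) and at most 4.33% in every other library. These sums are descriptions of RNA and were not tested.

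**Figure D4:**
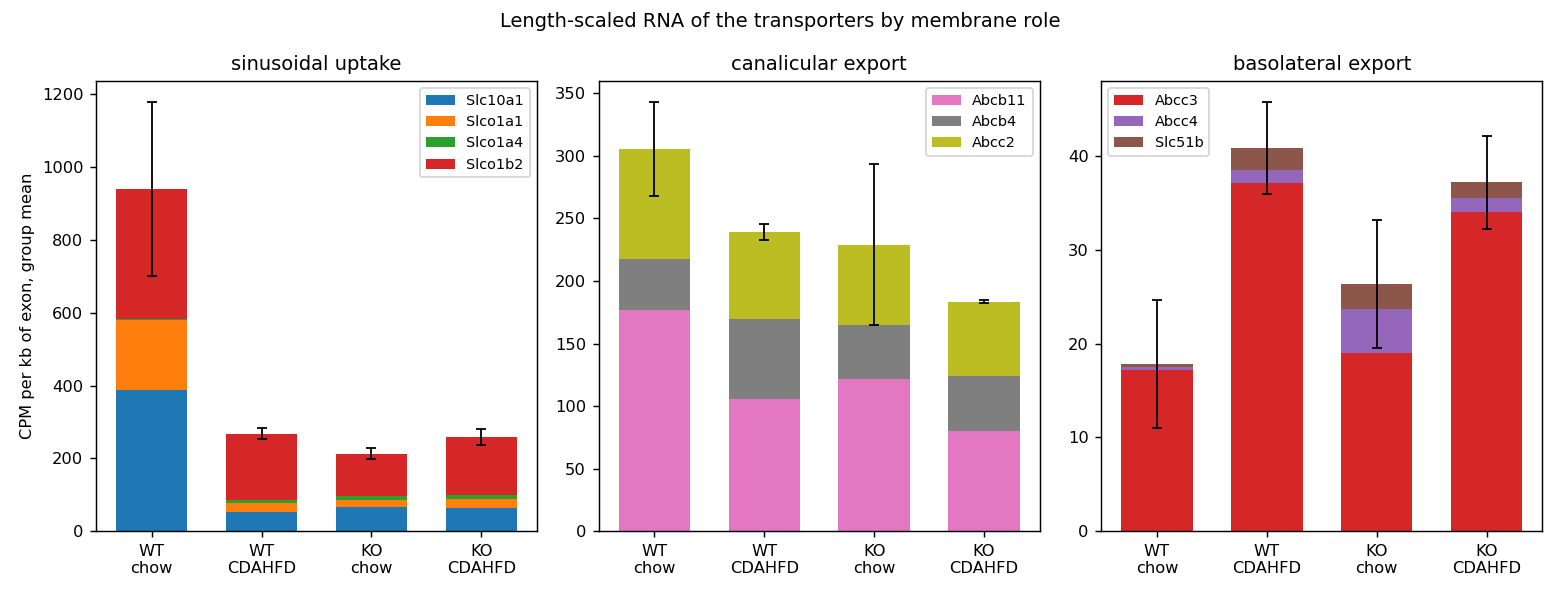
Length-scaled RNA (y axis, mean CPM per kb of exon, from 0, a scale of its own per panel) of the uptake, canalicular and basolateral transporters in each group, stacked by gene. Bars show 1 SD of the sum over libraries on either side. The uptake sum was 939 in WT chow against 213 to 268 in the other groups.

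Between the groups that had changed, few members differed. Between KO CDAHFD and WT CDAHFD no member rose or fell by edgeR's test, in which 0.0864% of all genes were higher in KO and 0.271% lower. At an unadjusted p under 0.05, 2 members were past the threshold, Abcb11 with a log2 difference of -0.41 (SE 0.16) and Abcb4 with -0.53 (SE 0.18), and DESeq2 called 0. Of all 17358 genes, 1523 had an unadjusted p under 0.05, and DESeq2 called 114 higher and 131 lower. The differences of the other 8 members ran from -0.48 (SE 0.51) for Slc51b to 0.62 (SE 0.50) for Slco1a4.

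Between KO CDAHFD and KO chow, edgeR called 1 member lower and 0 higher, beside 2.44% and 3.76% of all genes. That member was Abcc4, at 3.11-fold lower (log2 fold change -1.64, SE 0.29, adjusted p = 0.0082), and without KO chow replicate 2 the value was -0.88 (adjusted p = 0.0828). Abcb11 had a value of -0.61 (SE 0.18, adjusted p = 0.0636), which passed the threshold with the clock score as a covariate (-0.59, adjusted p = 0.0475), and Abcc3 one of 0.84 (SE 0.35, adjusted p = 0.175). At an unadjusted p under 0.05, 4 members were past the threshold (Slco1b2, Abcb11, Abcc3, Abcc4), and DESeq2 called 2 lower, Abcb11 and Abcc4, and 0 higher. Of all 17358 genes, 4002 had an unadjusted p under 0.05, and DESeq2 called 670 lower and 1234 higher.

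Between KO chow and WT CDAHFD, 1 member was higher, again Abcc4, beside 2.71% of all genes, and 0 were lower, beside 3.42%. Abcc4 was 3.25-fold higher in KO chow (log2 fold change 1.70, SE 0.29, adjusted p = 0.0054), and without KO chow replicate 2 the value was 0.94 (adjusted p = 0.0575). At an unadjusted p under 0.05, 5 members were past the threshold (Slco1a1, Slco1b2, Abcb4, Abcc3, Abcc4), and DESeq2 called 1 higher and 3 lower (Slco1b2, Abcb4, Abcc3). Of all 17358 genes, 4168 had an unadjusted p under 0.05, and DESeq2 called 870 higher and 1211 lower.

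The diet effect differed between genotypes for 5 members, by the interaction of genotype and diet in the same model. A positive interaction means that the log2 change from chow to CDAHFD was higher in KO than in WT. It was positive for 3 uptake genes, at 2.83 (SE 0.38, adjusted p = 2.14e-04) for Slc10a1, 3.21 (SE 0.31, adjusted p = 1.79e-05) for Slco1a1 and 1.41 (SE 0.26, adjusted p = 0.0018) for Slco1b2, beside 8.63% of all genes. The diet lowered these genes in WT, whereas in KO their log2 changes with diet were -0.06 (SE 0.28), 0.32 (SE 0.23) and 0.46 (SE 0.20), none past the threshold. It was negative for 2 basolateral genes, at -3.58 (SE 0.39, adjusted p = 4.98e-05) for Abcc4 and -3.68 (SE 0.80, adjusted p = 0.0054) for Slc51b, beside 14.5% of all genes. Abcc4 went up with the diet in WT and down in KO, and without KO chow replicate 2 its interaction was -2.82, while that of Slc51b was -4.75 without WT chow replicate 1.

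The interaction of the other 5 members did not pass the threshold, which does not show that the diet effects were equal. For Abcb11 and Abcc3 the log2 changes were -0.74 (SE 0.15) and 1.11 (SE 0.28) in WT, -0.61 (SE 0.18) and 0.84 (SE 0.35) in KO, and the interactions were 0.13 (SE 0.23, adjusted p = 0.736) and -0.27 (SE 0.44, adjusted p = 0.719). Without the 4 libraries with a clock score above 0, Abcb11 changed by -0.77 in WT against -0.23 in KO, with an interaction of 0.54 (adjusted p = 0.0806). Abcb4 had an interaction of -0.62 (SE 0.26, adjusted p = 0.105), Slco1a4 of -0.99 (SE 0.72, adjusted p = 0.362) and Abcc2 of 0.23 (SE 0.48, adjusted p = 0.784). The Abcb4 interaction passed the threshold with the clock score as a covariate (-0.77, adjusted p = 0.0167), without the 4 libraries with a clock score above 0 (-0.72, adjusted p = 0.0293), with library size as the only scaling (-0.97, adjusted p = 0.0112), with every gene tested (-0.66, adjusted p = 0.0423) and without WT chow replicate 3 (-0.78, adjusted p = 0.0172).

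**Figure D5:**
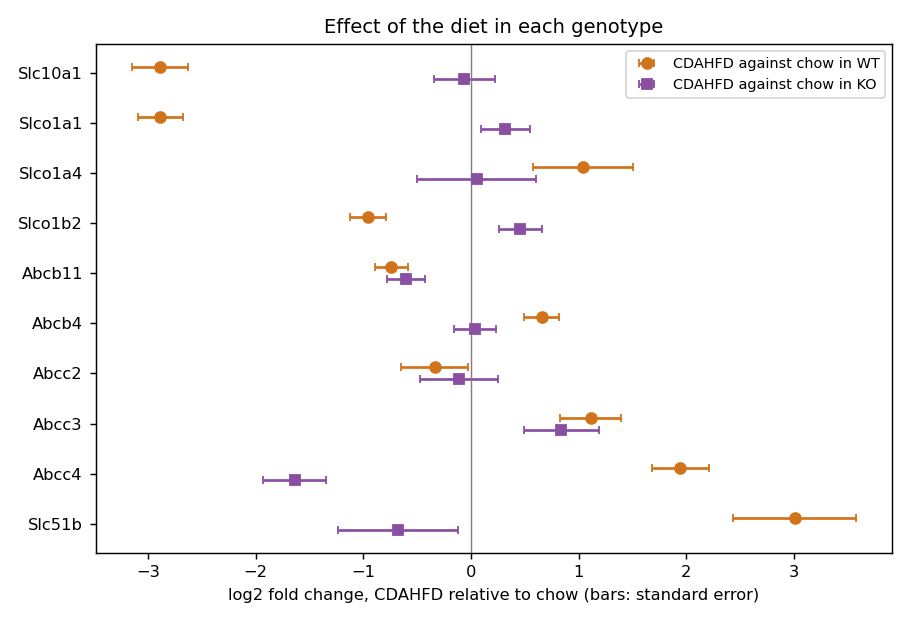
Log2 fold change of each transporter from chow to CDAHFD (x axis) with its standard error (bars), in WT (circles) and in KO (squares). Slc10a1 stood at -2.89 in WT and -0.06 in KO, Abcc4 at 1.94 and -1.64, and Abcb11 at -0.74 and -0.61.

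Further transporters, regulators and enzymes of the same pathway were counted from fixed lists. Over all genes tested, 22.0% rose and 17.0% fell in KO chow, 26.1% and 25.0% in WT CDAHFD, and 26.9% and 25.4% in KO CDAHFD, and the shares that rose among the other transporters and those of the anchoring genes below lay near these. Of 26 other hepatic transporters, 24 were tested, of which 6 rose and 13 fell in KO chow, and 6 rose and 11 fell in each CDAHFD group relative to WT chow. The 6 that rose were Abcb1a, Abcb1b, Abcc1, Abcc5, Slco3a1 and Slc10a2 in each comparison. Abcc1, a glutathione conjugate pump that many non-parenchymal cells express, rose by a log2 fold change of 1.91 (SE 0.25) in KO chow, 3.02 (SE 0.23) in WT CDAHFD and 2.75 (SE 0.23) in KO CDAHFD. Abcb1a, a P-glycoprotein gene, rose by 2.62, 2.60 and 2.82, and Abcb1b by 2.06, 1.40 and 1.27. Among those that fell, the organic anion transporter gene Slc22a7 had -3.18 (SE 0.34), -2.29 (SE 0.27) and -1.86 (SE 0.27), Abcg8, whose product exports sterols into bile, had -1.91, -1.81 and -2.46, and the anion transporter gene Slc17a2 had -1.61, -1.88 and -1.91. Abcc5, a pump for cyclic nucleotides and other anions, rose by 1.37, 2.24 and 2.13. Slco2a1, the prostaglandin transporter gene, fell by 0.91 (SE 0.20), 2.60 (SE 0.19) and 1.48 (SE 0.18), and it was higher in KO CDAHFD than in WT CDAHFD (log2 difference 1.13, SE 0.19, adjusted p = 0.0219).

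Of 20 regulators, 19 were tested, and 2 rose in each comparison with WT chow, Nfe2l2 and Ahr, while 12 fell in KO chow, 14 in KO mice on CDAHFD and 15 in WT mice on CDAHFD. Nr1h4 codes for the bile acid receptor FXR, which is known to raise Abcb11 and Slc51b and to lower Slc10a1 through SHP, the product of Nr0b2. It fell by 1.10 (SE 0.17) on the log2 scale in KO chow, by 1.30 (SE 0.15) with the diet in WT and by 1.24 (SE 0.15) in KO CDAHFD, and in the same order Nr0b2 fell by 2.63 (SE 0.54), 1.94 (SE 0.44) and 1.41 (SE 0.43). Hnf4a, which codes for a master regulator of hepatocyte genes, fell by 0.94, 0.80 and 0.97. The receptor genes of xenobiotics differed, as Nr1i3 (CAR) had -1.89 (SE 0.31), -0.90 (SE 0.25) and -0.20 (SE 0.24, adjusted p = 0.520), and Nr1i2 (PXR) had -0.29 (SE 0.14, adjusted p = 0.114), -0.64 (SE 0.12) and -0.78 (SE 0.12).

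Nfe2l2, which codes for NRF2, rose by 0.91 (SE 0.14), 0.80 (SE 0.13) and 0.60 (SE 0.13). Of 10 NRF2 targets that include neither Abcc4 nor Abcc3, 8 rose in KO chow, 6 in WT mice on CDAHFD and 5 in KO mice on CDAHFD, where 1 fell (Gclm). Their summed level was highest in KO chow, with 2265 and 2482 CPM against 1369 to 1803 CPM in WT chow, and it ran from 2023 to 2097 CPM in WT CDAHFD and from 1604 to 1802 CPM in KO CDAHFD. The KO CDAHFD sums thus lay within the range of WT chow, although the 10 targets had a median log2 fold change of 0.88 for KO CDAHFD. The part of NRF2 in the Abcc4 values was not tested.

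Of 16 genes of bile acid synthesis, 13 fell in each comparison with WT chow and 2 rose in KO chow, Cyp39a1 and Cyp7a1, the gene of the rate-limiting enzyme. Cyp7a1 had 93.1 and 292 CPM in KO chow against 23.7 to 90.6 CPM in WT chow (log2 fold change 1.74, SE 0.62, adjusted p = 0.0413). The higher KO chow value came from replicate 2, whose clock score was above 0. Of 13 genes for the anchoring and trafficking of membrane proteins, 3 rose and 4 fell in KO chow, and 4 rose and 3 fell in each CDAHFD group. Slc9a3r1, Pdzk1 and Rdx, which tie transporters to the cortical cytoskeleton, fell in each of the 3, and Ezr and Msn rose.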

How the data were processed

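Poly-A selected liver RNA of 12 mice was sequenced in non-directional libraries. According to the study's methods and the submitters' processing notes, the authors checked reads with FastQC 0.11.5, aligned them to GRCm38 with STAR 2.7.3a and used DESeq2 for their own comparisons. The counting program and annotation release are not given in the sources used here. The deposited values are raw counts of reads per Ensembl gene in a single table, without normalization. Groups and replicate numbers follow the sample titles, genotype and treatment labels, which give group sizes that differ from the equal sizes in the methods. A library was treated as 1 mouse, and p-values measure the spread between these libraries. No pair of replicates agreed within sampling noise, so all were kept.

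Symbols, positions and exon lengths were taken from GENCODE M21 (52081 of 55357 identifiers matched). Genes were filtered with filterByExpr, scaled with TMM and fitted in edgeR 4.0.16 (R 4.3.3) by quasi-likelihood (glmQLFit, legacy method) over all 12 libraries, using 4 group means, Benjamini-Hochberg adjustment and a threshold of 0.05. The standard error is the size of the log2 fold change divided by the square root of F. CPM use TMM library sizes. The steps were tested on simulated counts in which a small share of genes changed in a single group. The scaling was thus not tested under shifts as wide as those found here. Alternatives were DESeq2 1.42.0, other scalings, no filter, only the groups compared, the replicate number as a block, the clock score as a covariate and leaving out each library. Leaving out the 4 libraries with a clock score above 0 was chosen after seeing the data. All 10 members and the genes Ppara, Nr1h4, Nr0b2, Nr1i2, Nr1i3, Hnf4a, Nfe2l2, Slc51a and Cyp7a1 were to be named (a further regulator is not reported here), and of the other transporters up to 3 with the largest change in each direction in KO chow and WT CDAHFD with a mean of at least 50 counts. The members, lists and alternatives were chosen with earlier results of these data known. Promoter windows are the 250 bases before each start in the RefSeq table for GRCm38.p6. Figures were drawn with matplotlib 3.10.9 in Python 3.11.15.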

Additional observations from a re-analysis of the deposited data

Results flagged for a closer look

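In WT chow, Slco1a4 had 4.39 CPM in replicate 1 and 27.0 to 27.5 CPM in the other 3 libraries, a gap that exceeded Dixon's 95% critical value for 4 samples. The 10 transporters were each tested in this way in WT chow, and chance gives such a gap in about 1 of 20 groups. Replicate 1 also had the lowest clock score (-3.75). Without it, the log2 fold change of Slco1a4 relative to WT chow was 0.73 for WT CDAHFD (adjusted p = 0.0501), 1.29 for KO chow (adjusted p = 0.0059) and 1.37 for KO CDAHFD (adjusted p = 0.0018).

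The effect of CDAHFD differed between WT and KO by the interaction term for 5 transporters. The log2 interaction was 2.83 for Slc10a1, 3.21 for Slco1a1 and 1.41 for Slco1b2, which were lower with the diet in WT livers. It was -3.58 for Abcc4 and -3.68 for Slc51b, which were higher with the diet in WT livers. KO chow entered each of these with 2 libraries.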

How the results depend on the processing

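The 52 member differences given above were recomputed under 20 settings, or 19 for the interaction. Of 1030 values, 971 kept their direction and their side of the threshold, 10 were no longer past it, 30 newly passed it and 19 changed sign, none of which was past the threshold before. Where 1 library was left out, KO chow values ran from -0.088 to 0.26 for Abcb4 (-0.019 without WT chow replicate 2, the lowest without KO chow replicate 2). They ran from -1.12 to 0.025 for Abcc2 (the highest without KO chow replicate 1) and from -0.082 to 0.39 for Abcc3 (below 0 without WT chow replicate 1 and without KO chow replicate 2). Under scaling by library size alone, the Abcc2 value turned to 0.084 for KO CDAHFD and 0.24 for WT CDAHFD. With TMM but without the 4 libraries with a clock score above 0, the latter value was 0.18. The interaction of Abcb11 turned to -0.23 under scaling by library size alone and ran from -0.053 (without KO chow replicate 1) to 0.34 with 1 library left out. That of Abcc2 turned to -0.12 under this scaling, -0.18 with the replicate block and -0.22 with the clock score, and ran from -0.23 (without KO chow replicate 1) to 0.90 (without KO chow replicate 2). The diet effect on Slc10a1 in KO turned to 0.15 under this scaling and 0.25 without those 4 libraries, and ran from -0.31 (without KO chow replicate 1) to 0.27 (without KO chow replicate 2). The cause was not tested.

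Of 278 counts of members, 259 stayed within 1.5 times. The count lower in KO CDAHFD than in WT CDAHFD was 1 with only the groups compared. Between KO CDAHFD and KO chow, the count higher was 1 under scaling by library size alone and with every gene tested, and 0 to 1 with 1 library left out. The count lower was 2 with every gene tested, with the clock score as a covariate and with DESeq2, 0 without the 4 libraries with a clock score above 0, and 0 to 2 with 1 library left out. Between KO chow and WT CDAHFD, the count higher was 0 to 1 and the count lower 0 to 2 with 1 library left out. The count lower there was 2 under scaling by library size alone and 3 with every gene tested, with the clock score, with only the groups compared, without those 4 libraries and with DESeq2. Leaving out 1 KO chow library leaves a lone sample that is assumed to vary like the other groups.

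The correlations of deviations between libraries of the same replicate number ran from -0.24 to 0.27, so the numbers do not pair the samples. With the replicate number as a block, Slco1a4 in WT CDAHFD passed the threshold (1.40, adjusted p = 0.0162), and the block changed no other call among these differences. KO chow with 2 libraries limits every contrast that holds it, and counts of 0 to 14 in WT chow limit Slc51b.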
